A study of Mus musculus with 18 samples.

Results

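The genes for mitochondrial ribosomal proteins were taken as every row of the count table whose symbol starts with Mrpl or Mrps followed by a digit, without pseudogenes, and whose mean level over all libraries was at least 1 CPM (counts scaled to the library total). The table held 32789 genes. The symbol matched 78 of them, and all 78 reached the limit on the mean and entered the tests, so no gene lay just outside the limit. The lowest was Mrps28 at 6.99 CPM by this measure, followed by Mrpl53 at 8.48 CPM. By the textbook assignment of the proteins, 16 belong to the small subunit and have a bacterial homologue, 10 belong to the small subunit and are found only in mitochondria, 30 are large subunit proteins with a bacterial homologue and 21 are large subunit proteins without one. Mrps18a and Mrps30 are among the latter in spite of their symbols. The remaining gene, Mrps36, carries a ribosomal symbol, but its protein is known as a component of the 2-oxoglutarate dehydrogenase complex.

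The libraries came from mouse alveolar macrophages, the resident phagocytes of the airspaces, collected by lung lavage and selected with magnetic beads against CD11c. Polyadenylated RNA was sequenced from 6 groups of 3 libraries. The Vhl/Hif1a knockout carried CD11c-Cre and lacked Vhl and Hif1a, the Vhl/Hif2a knockout carried CD11c-Cre and lacked Vhl and Hif2a (gene symbol Epas1), and the triple knockout carried CD11c-Cre and lacked all 3 genes. Each had a control group with the matching floxed alleles, and the labels do not say whether those controls carried Cre, nor the age of the mice. CD11c-Cre is a recombinase driven by CD11c (Itgax) sequences, so it acts in CD11c-positive cells other than alveolar macrophages as well. No group lacked Vhl alone. Nothing in the labels says that the libraries of a group came from separate mice, so the p-values measure only the spread between these libraries, which may be technical. Bulk RNA does not separate fewer cells of a type from less RNA per cell.

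The mitochondrial ribosome translates the few mRNAs of the mitochondrial genome, which encode core subunits of the respiratory chain and the ATP synthase. Its ribosomal RNAs are transcribed in the organelle, whereas all of its proteins are encoded in the nucleus, made in the cytosol and imported, so nuclear and mitochondrial gene expression have to meet in 1 particle. VHL marks the HIF alpha subunits for degradation when oxygen is present. Loss of VHL stabilises HIF-1α and HIF-2α, and HIF-1α is known for raising glycolysis and restraining mitochondrial respiration, in part through Mxi1, a protein that opposes Myc.

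Promoters of nuclear genes for mitochondrial proteins are known for binding NRF1, GABP (an ETS factor) and YY1. RefSeq promoter windows on GRCm38.p6, from 250 bases before to 50 bases after the start site, were matched by symbol for 69 of the 78 genes. The windows below belong to the 3 genes whose response differed between crosses, Mrpl24, Mrps16 and Mrpl2, and to 2 genes whose windows hold NRF1, ETS or YY1 letters, Mrps26 and Mrps12. Capitals mark matches on either strand to GCGC, any 2 letters and GCGC again (NRF1), CCGGAAG (ETS), AAGATGGC (YY1) or to ACGTG and GCGTG, the core letters of the hypoxia response element; ACGTG also lies within the E-box CACGTG. Mrpl24 is at chr3:87919294-87919593 on the plus strand, Mrps16 at chr14:20393585-20393884 on the minus strand, Mrpl2 at chr17:46645979-46646278 on the plus strand, Mrps26 at chr2:130563507-130563806 on the plus strand and Mrps12 at chr7:28741772-28742071 on the minus strand.
Mrpl24: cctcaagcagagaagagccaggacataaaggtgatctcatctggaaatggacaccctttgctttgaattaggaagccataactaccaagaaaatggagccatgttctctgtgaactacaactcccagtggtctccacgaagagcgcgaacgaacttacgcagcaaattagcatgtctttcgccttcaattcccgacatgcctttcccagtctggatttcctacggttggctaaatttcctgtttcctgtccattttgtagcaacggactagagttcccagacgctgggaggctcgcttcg
Mrps16: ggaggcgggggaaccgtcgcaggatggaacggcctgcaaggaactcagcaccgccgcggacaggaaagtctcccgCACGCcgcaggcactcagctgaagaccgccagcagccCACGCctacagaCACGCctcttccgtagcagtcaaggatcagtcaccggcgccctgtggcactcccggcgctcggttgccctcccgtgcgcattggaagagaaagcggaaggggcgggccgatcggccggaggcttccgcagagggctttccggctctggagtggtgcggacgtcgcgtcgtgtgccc
Mrpl2: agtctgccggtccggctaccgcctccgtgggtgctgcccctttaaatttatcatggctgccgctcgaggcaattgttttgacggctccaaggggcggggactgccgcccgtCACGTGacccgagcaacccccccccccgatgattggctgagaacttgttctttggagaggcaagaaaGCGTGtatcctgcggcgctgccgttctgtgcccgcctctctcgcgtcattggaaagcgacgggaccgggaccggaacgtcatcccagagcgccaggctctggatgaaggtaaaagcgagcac
Mrps26: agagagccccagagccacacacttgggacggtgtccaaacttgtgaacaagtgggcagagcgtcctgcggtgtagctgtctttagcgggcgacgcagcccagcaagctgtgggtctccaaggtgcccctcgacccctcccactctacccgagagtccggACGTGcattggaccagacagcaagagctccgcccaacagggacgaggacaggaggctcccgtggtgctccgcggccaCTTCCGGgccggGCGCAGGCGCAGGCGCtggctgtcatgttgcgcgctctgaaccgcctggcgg
Mrps12: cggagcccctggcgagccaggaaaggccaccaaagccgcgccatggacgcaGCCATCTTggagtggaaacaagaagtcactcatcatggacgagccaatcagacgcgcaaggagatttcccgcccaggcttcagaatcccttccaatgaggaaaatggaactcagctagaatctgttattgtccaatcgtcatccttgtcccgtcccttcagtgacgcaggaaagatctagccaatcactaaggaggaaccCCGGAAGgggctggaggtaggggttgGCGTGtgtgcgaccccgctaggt
The Mrpl24 window held none of these letters. The Mrps16 window held GCGTG on the reverse strand at 3 places, the Mrpl2 window held an E-box and GCGTG, the Mrps26 window held ACGTG and an ETS match beside an overlapping pair of NRF1 matches, and the Mrps12 window held a YY1 and an ETS match and GCGTG after the start site.

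Among the 69 windows, the YY1 letters were in 17.4%, against 4.9% of the 9959 windows matched to tested genes and 2.7% of all 32851 windows in the table. The ETS letters were in 36.2%, against 19.4% and 8.9%. The NRF1 letters were in 20.3%, against 13.8% and 6.2%. The hypoxia response letters were in 66.7%, against 63.2% of windows of tested genes and 43.8% of all windows, and the E-box was in 7.2%, against 10.4% and 7.2%. SP1 letters, GGGCGG, were in 47.8%, against 64.0% and 35.7%. The median GC content of the windows was 58.0%, between the 60.7% of tested genes and the 52.7% of all windows. These are counts of letters in a window, not of bound sites.

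Library totals ran from 19230452 to 34015320 counts. Vhl fell in every knockout, to 2.88 ± 0.24 CPM from 16.9 ± 3.25 (SD, n = 3 in each group here and below) in the Vhl/Hif1a cross, to 2.25 ± 0.297 from 18.7 ± 1.3 in the Vhl/Hif2a cross and to 2.2 ± 0.3 from 12.9 ± 1.2 in the triple cross. Gene counts include exons outside a floxed segment, so Hif1a and Epas1 give no check of their own deletions. Hif1a was at 58.7 to 78.6 CPM in the Vhl/Hif2a knockout and at 179 to 242 CPM in its control. In the Vhl/Hif1a cross it was at 166.1 to 208.6 CPM in the knockout and at 225.3 to 231.5 CPM in the control. Epas1 was at 47.97 to 58.56 CPM in the Vhl/Hif2a knockout, which lacks it, and at 23.2 to 35.06 CPM in its control. The 10 alveolar macrophage markers summed to 20300 to 37900 CPM per library, while the T and NK cell list and the eosinophil and mast cell list stayed below 1 CPM and Ly6g, Ncr1, Mcpt8 and Prg2 were at 0. Neutrophil markers summed to 73.2 to 192 CPM and epithelial markers to 26.2 to 404 CPM, with the lowest values of both in the Vhl/Hif1a knockout; their part in the results was not tested.

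Replicate 2 of the triple control stood apart from the other 17 libraries, and it did so in these genes too. It held the highest value of the 18 libraries for 46 of the 78 genes and the lowest for 7, whereas 25.7% of all tested genes had their highest value there. Against the other 2 triple controls, 56 of the 78 genes were higher and 22 lower, with a median log2 difference of 0.24 (0.01 over all tested genes) and a range from -1.0 to 1.13. Mrps12, Mrps24, Mrpl54 and Mrpl52 were more than 1 log2 unit higher in it. The 39 genes with shorter transcripts had a median difference of 0.42 and the 39 with longer transcripts 0.13, and across the 78 genes the deviation of this library ran with GC content (Spearman's rho 0.714) and against length (-0.369); genes are not independent replicates. Transcripts of the mitochondrial genome summed to 7454 CPM in it and to 18110 to 31260 CPM in the other libraries. Counts of calls, counts at an unadjusted p under 0.05 and medians that rest on the triple cross are therefore given with and without this library; for the other gene lists this was chosen after the data were seen. The fit of all 18 libraries shares 1 estimate of the spread, so this library also entered the tests of the Vhl/Hif1a and Vhl/Hif2a crosses. For those crosses it was left out only where the libraries of a comparison were fitted alone.

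**Figure D1:**
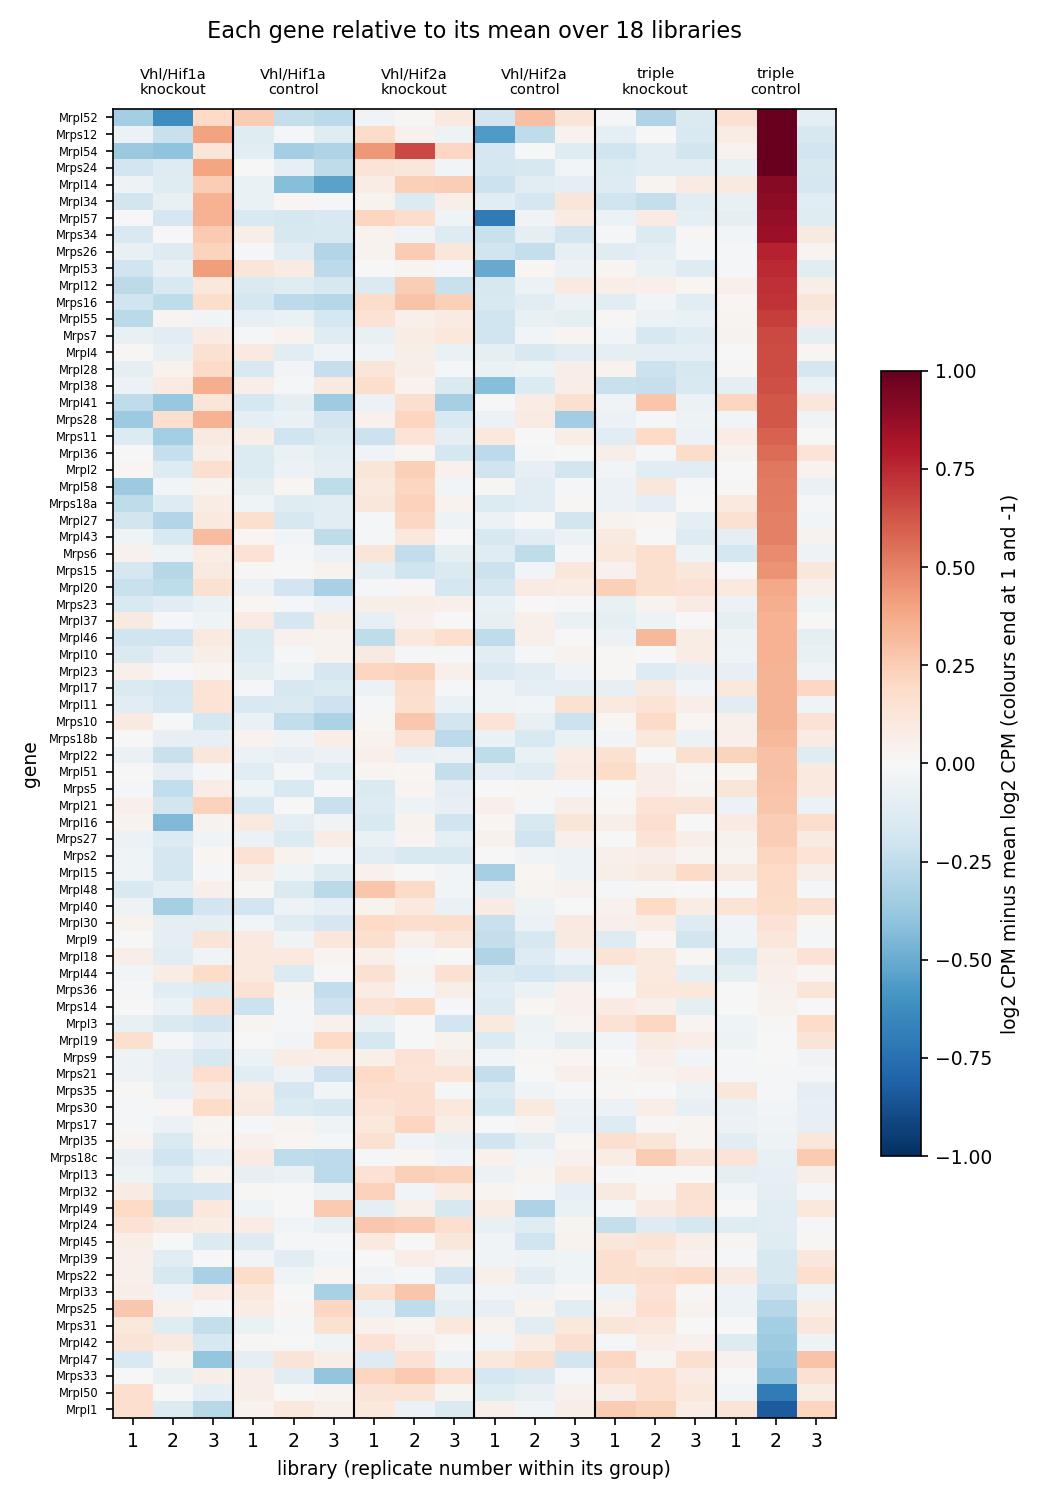
Log2 CPM of each of the 78 genes (rows, ordered by their value in triple control replicate 2) minus its mean over the 18 libraries (columns, 3 per group, separated by lines). Red is above and blue below the gene's mean; triple control replicate 2 is the column with the strongest colours in both directions, and it held the highest value of 46 of the 78 genes.

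The mitochondrial ribosomal protein genes were expressed at moderate levels that spanned a wide range. Per kb of principal transcript (GENCODE M21), their median was 17.6 CPM per kb, from 3.22 for Mrpl47 to 113 for Mrpl33, a 34.9-fold range. The 82 tested cytosolic ribosomal protein genes had a median of 394 CPM per kb and 74 nuclear genes for respiratory chain and ATP synthase subunits one of 66.9 CPM per kb. After Mrpl33 came Mrps21 at 70.5, Mrps15 at 53.7, Mrpl42 at 45.2 and Mrpl24 at 39.6 CPM per kb. The lowest after Mrpl47 were Mrpl19 at 4.27, Mrps35 at 4.41, Mrpl35 at 4.82 and Mrps26 at 5.23 CPM per kb.

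The transcripts of the 5 lowest genes were 3364 to 5000 bases long, while their coding sequences held at most 960 bases. Per kb of coding length the range narrowed to 25.6-fold, from 10.8 for Mrps22 to 276 for Mrpl33, with a median of 38 CPM per coding kb. Mrpl33 and Mrps21 kept the first and second rank on this scale, and Mrpl47 was no longer the lowest. The medians per coding kb were 44.4 for small subunit proteins with a bacterial homologue, 29.4 for those found only in mitochondria, 39.3 for large subunit proteins with a bacterial homologue and 36.2 for the other large subunit proteins. Cytosolic ribosomal protein genes had a median of 720 and respiratory chain genes one of 107 CPM per coding kb.

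**Figure D2:**
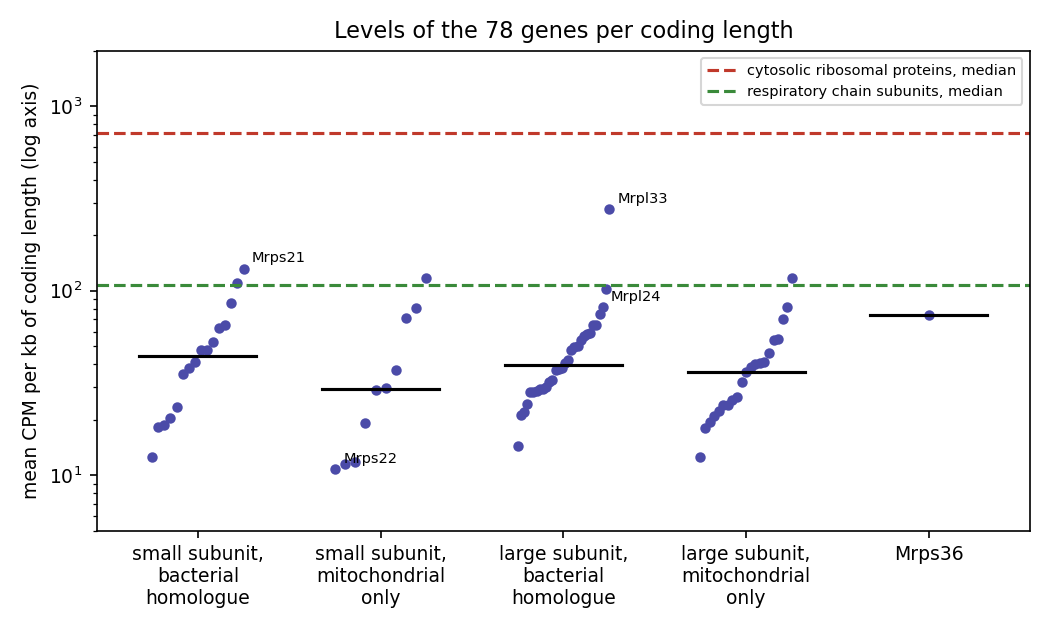
Mean CPM per kb of coding length over 18 libraries (log axis) for the 78 genes by kind of protein; each point is a gene, black lines are medians, and dashed lines are the medians of 2 other gene lists. All kinds overlap, Mrpl33 is highest at 276, and nearly all genes lie below the respiratory chain median of 107.

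Summed over the 78 genes, the mRNA for these proteins made up 0.186% to 0.209% of the counts on average in the 6 groups. The sum was 1895, 1797 and 2025 CPM in the Vhl/Hif1a knockout and 1929, 1860 and 1816 CPM in its control. It was 2017, 2061 and 1919 CPM in the Vhl/Hif2a knockout and 1794, 1861 and 1937 CPM in its control. It was 1950, 2004 and 1940 CPM in the triple knockout and 1931, 2371 and 1978 CPM in its control. Knockout and control libraries overlapped in all 3 crosses, and the group means differed little: 1906 ± 114 against 1868 ± 57, 1999 ± 72.3 against 1864 ± 71.8, and 1965 ± 34.7 against 2093 ± 242 CPM.

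**Figure D3:**
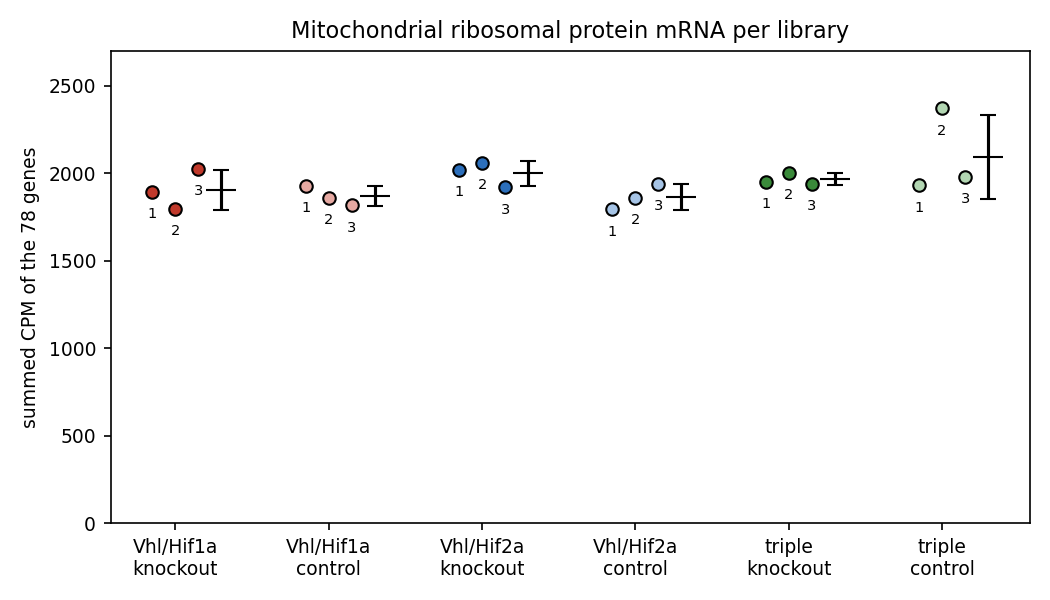
Summed CPM of the 78 genes in each library (points, with the replicate number below) and the mean ± SD of the 3 libraries of each group (bars). The vertical axis starts at 0; 17 libraries lie between 1794 and 2061 CPM and triple control replicate 2 is at 2371 CPM.

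With HIF-2α left in place, in the Vhl/Hif1a knockout, no mitochondrial ribosomal protein gene passed the test. The median log2 fold change against the control was 0.04 (0.00 over all 12900 tested genes), and the genes ran from -0.20 to 0.36. In the quasi-likelihood test of edgeR with Benjamini-Hochberg adjustment, 0 of 78 passed an adjusted p of 0.05, where 3.64% of all tested genes did, and DESeq2 called 0 as well. At an unadjusted p under 0.05 there were also 0, against 13.2% of all tested genes, and the lowest adjusted p was 0.42. For 72 of the 78 the 95% interval of the fold change lay within 1.5-fold in either direction, against 63.3% of all tested genes. The knockout libraries lay wholly above the controls for 1 gene and wholly below for 2 (11.8% and 12% of all tested genes). The median was below 0 with total counts and no scaling factor, and it was -0.03 without replicate 3 of the knockout. Its sign therefore rests on the scaling and on that library. The deviations of that library ran with GC content (Spearman's rho 0.507 over all tested genes and 0.467 across the 78). Over all tested genes the other libraries of this cross had -0.188 to -0.0172. The part of GC content in the median was not tested. Several marker sums did not overlap between knockout and control in this cross. Alveolar macrophage markers were at 30600 to 37900 against 27200 to 27900 CPM, and dendritic cell markers at 9.58 to 12.2 against 12.6 to 17.4 CPM. Neutrophil markers were at 73.2 to 82.7 against 152 to 171 CPM, and epithelial markers at 26.2 to 45.9 against 68.3 to 75.6 CPM. Their part in the results of the family was not tested here either.

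The largest differences in this cross, none past the test, were higher values of Mrpl14 (0.36 ± 0.21 SE, adjusted p = 0.521), Mrpl57 (0.24), Mrps28 (0.19), Mrps10 (0.18) and Mrpl28 (0.18). The largest in the other direction were Mrpl47 (-0.20), Mrps22 (-0.19), Mrpl3 (-0.15), Mrpl52 (-0.15) and Mrpl1 (-0.13), all as log2 fold changes. Mrpl14, a large subunit protein at the interface of the subunits, was at 20.4, 19.4 and 25.2 CPM in the knockout and at 20.3, 15.8 and 14.7 CPM in the control. The highest control library lay between the lowest and the middle knockout library, so the groups overlapped.

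With HIF-1α left in place, in the Vhl/Hif2a knockout, the genes lay slightly higher as a family and 1 of them, Mrpl24, rose. The median log2 fold change was 0.10 (0.00 over all tested genes), 60 of 78 genes were above 0 (50.6% of all tested genes) and the range was -0.14 to 0.54. By edgeR, 1 of 78 was called, where 14.7% of all tested genes were, 7.68% of them higher. At an unadjusted p under 0.05 there were 11, all higher, against 13.7% of all tested genes in that direction. Knockout libraries lay wholly above the controls for 23 genes and wholly below for 2 (18.5% and 16.6% of all tested genes). The share called was thus below that of all tested genes, the share at an unadjusted p under 0.05 was near it, and the share wholly above the controls was above it. The 95% interval lay within 1.5-fold either way for 68 of the 78, against 57% of all tested genes. In the same cross the summed dendritic cell markers were at 5.49 to 6.7 CPM in the knockout and 12.3 to 28.5 CPM in the control, with 3 of the 6 genes called lower. The summed alveolar macrophage markers were at 31700 to 33700 CPM against 23400 to 26700 CPM, with 4 of the 10 called higher and 2 lower. Neither pair of ranges overlapped, and their part in the results of the family was not tested. The alveolar macrophage sums were also apart, in the same direction, in the other crosses, and the dendritic cell sums in the Vhl/Hif1a cross. The relation of a library's deviations to transcript length also differed between the Vhl/Hif2a knockout and its control. Over all tested genes Spearman's rho was -0.178, -0.122 and -0.000892 in the knockout and 0.186, 0.15 and 0.0569 in the control. Across the 78 genes it was -0.0909, -0.0529 and -0.0572 against 0.22, 0.00616 and -0.151. The part of transcript length in the median of the family was not tested.

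Mrpl24 encodes a large subunit protein with a bacterial homologue (ENSMUSG00000019710, chromosome 3, 87919506 to 87923672, plus strand, 6 exons, GRCm38). It was at 63.4, 63.0 and 59.2 CPM in the knockout and at 49.99, 48.4 and 53.7 CPM in the control. Every knockout library lay above every control library, and above all other libraries of the series. The log2 fold change was 0.29 ± 0.07 (SE; adjusted p = 0.00853 by edgeR), a 1.22-fold rise with a 95% interval of 0.14 to 0.43 on the log2 scale. The call held under every alternative run, with an adjusted p of 0.000584 to 0.0485. In the Vhl/Hif1a cross Mrpl24 was at 56.5 ± 1.53 against 52.5 ± 2.7 CPM (log2 fold change 0.11 ± 0.07, adjusted p = 0.587), and in the triple cross at 46.5 ± 1.74 against 49.7 ± 2.03 CPM (-0.10 ± 0.07, adjusted p = 0.479). The Mrpl24 exons share 594 bases with Rrnad1 on the opposite strand; the library kit marks strand but the strand setting of the counting is not given in the sources used here, and Rrnad1, at a mean of 13.3 CPM, had a log2 fold change of 0.08 ± 0.13 (adjusted p = 0.79).

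In the fit of all 18 libraries the genes next in size did not pass the test. Mrpl54, a large subunit protein found only in mitochondria, was at 16.9, 19.8 and 14.5 CPM in the knockout and at 11.1, 12.5 and 11.5 CPM in the control (log2 fold change 0.54 ± 0.23, adjusted p = 0.149). Mrps16, a small subunit protein with a bacterial homologue, was at 21.6, 23.2 and 22.4 CPM against 17.1, 17.6 and 18.2 CPM (0.35 ± 0.15, adjusted p = 0.138). In both, the groups did not overlap. Mrpl14 had 0.33, Mrps33 0.33 (adjusted p = 0.0932) and Mrpl44, whose protein has a ribonuclease III-like fold, 0.27 ± 0.09 with the adjusted p closest to the threshold, 0.0527. The lowest log2 fold changes were Mrpl41 (-0.14), Mrpl21 (-0.12), Mrps2 (-0.11), Mrpl3 (-0.11) and Mrps15 (-0.11), and none of these passed the test. The number called was 3 without replicate 3 of the Vhl/Hif2a control and 2 without replicate 2 of the Vhl/Hif2a knockout. Mrpl24 was among them each time. Fitting only the 6 libraries of this cross keeps triple control replicate 2 out of the estimate of the spread. That fit called Mrpl24, Mrpl14, Mrps33, Mrpl54 and Mrps16 (adjusted p = 0.0322, 0.0403, 0.025, 0.028 and 0.0224 by edgeR), where 15.5% of all genes tested in it were called.

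In the triple knockout, which lacks both HIF alpha subunits together with VHL, no gene of the family passed the test. By edgeR, 0 of 78 were called, as were 0.0388% of all tested genes, and DESeq2 called 0. The median log2 fold change was -0.06 (-0.01 over all tested genes), with a range from -0.63 to 0.29 and 14 genes lower and 1 higher at an unadjusted p under 0.05 (8.08% and 3.43% of all tested genes). Knockout libraries lay wholly above the controls for 5 genes and wholly below for 9 (6.97% and 8.34%), and the 95% interval lay within 1.5-fold either way for 58 genes (59.1%). Without replicate 2 of the control, 0 genes reached an unadjusted p under 0.05 (2.63% of all tested genes), the median was 0.01 and the range shrank to between -0.19 and 0.195. Marker sums also stood apart in this cross. Alveolar macrophage markers were at 30600 to 31500 CPM in the knockout and 20300 to 28200 CPM in the control. Neutrophil markers were at 145 to 162 against 124 to 137 CPM, and epithelial markers at 165 to 186 against 206 to 250 CPM. Their part in these results was not tested.

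The lowest log2 fold changes in the triple cross were Mrpl52 (-0.63 ± 0.26 SE), Mrpl54 (-0.55), Mrps12 (-0.52), Mrpl34 (-0.49) and Mrps24 (-0.47), and the lowest adjusted p was 0.429. Mrps12, a small subunit protein at the decoding site, was at 15.6, 16.6 and 15.0 CPM in the knockout and at 17.5, 35.5 and 14.9 CPM in the control. Its control replicate 2 was above all other libraries and the rest overlapped, and without that library its log2 fold change was -0.04. The highest were Mrpl50 (0.29), Mrpl1 (0.27), Mrpl42 (0.20), Mrps33 (0.20) and Mrps25 (0.17). Mrpl50 was at 26.8, 28.8 and 27.7 CPM in the knockout and at 25.2, 15.8 and 27.0 CPM in the control, with control replicate 2 the lowest.

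**Figure D4:**
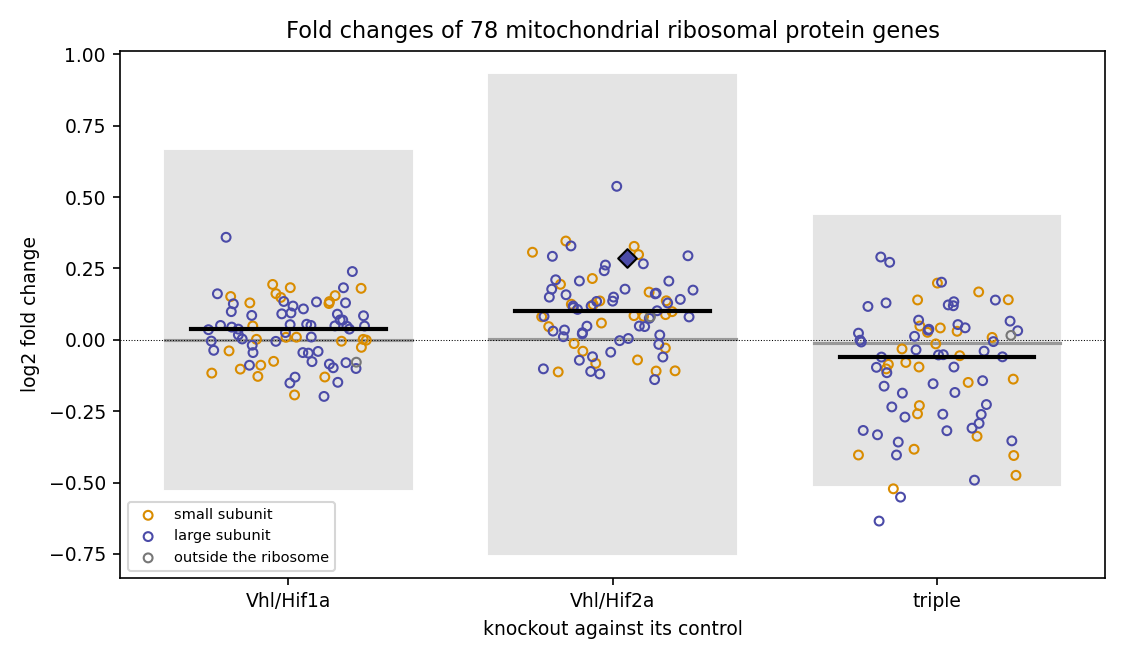
Log2 fold changes of the 78 genes in each knockout against its control; circles are genes coloured by subunit, the filled diamond is the called gene Mrpl24, black bars are medians (0.04, 0.10 and -0.06), grey boxes span the 5th to 95th percentile of all tested genes and grey lines are their medians. Nearly all of the 78 genes lie within the grey boxes.

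The size of the knockout effect was compared between crosses with the interaction contrast. The Vhl/Hif2a effect was higher than the triple effect for 3 of 78 genes, Mrpl24, Mrps16 and Mrpl2, and lower for 0, where 7.99% of all tested genes were called. At an unadjusted p under 0.05 there were 18, all higher (14.2% of all tested genes). The differences of the log2 fold changes were 0.38 ± 0.10 (SE; adjusted p = 0.0209 by edgeR) for Mrpl24, 0.75 ± 0.21 (0.0333) for Mrps16 and 0.59 ± 0.17 (0.0392) for Mrpl2. Without replicate 2 of the triple control the same 3 genes were called, with smaller differences for Mrps16 (0.50, adjusted p = 0.0327) and Mrpl2 (0.40, adjusted p = 0.0389) and 0.40 (adjusted p = 0.0115) for Mrpl24. The count at an unadjusted p under 0.05 was then 9, all higher (21.8% of all tested genes in both directions). Mrpl54 had the largest difference, 1.09 ± 0.33, and did not pass (adjusted p = 0.0538); without that library it was 0.63 ± 0.21 (adjusted p = 0.0748).

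These calls lay near the threshold. With 1 library left out, the number called was 0 without Vhl/Hif2a knockout replicate 1, Vhl/Hif2a control replicate 2, or triple knockout replicate 1 or 3. It was 1 without Vhl/Hif2a knockout replicate 2, Vhl/Hif2a control replicate 1 or 3, or triple knockout replicate 2, and it was 7 and 8 without triple control replicates 1 and 3. Mrpl2, a large subunit protein near the peptidyl transferase centre (chromosome 17, 46646229 to 46650139), was at 28.0, 30.2 and 26.4 CPM in the Vhl/Hif2a knockout and at 22.3, 24.2 and 22.5 CPM in its control. It was at 25.2, 23.7 and 23.7 CPM in the triple knockout and at 25.7, 37.0 and 26.3 CPM in the triple control. The Vhl/Hif2a knockout libraries were all above their controls and the triple knockout libraries all below theirs. Mrps16 (chromosome 14, 20389304 to 20393634, minus strand) had the same order, at 17.5, 18.7 and 17.5 CPM in the triple knockout and at 19.2, 31.3 and 20.7 CPM in the triple control.

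**Figure D5:**
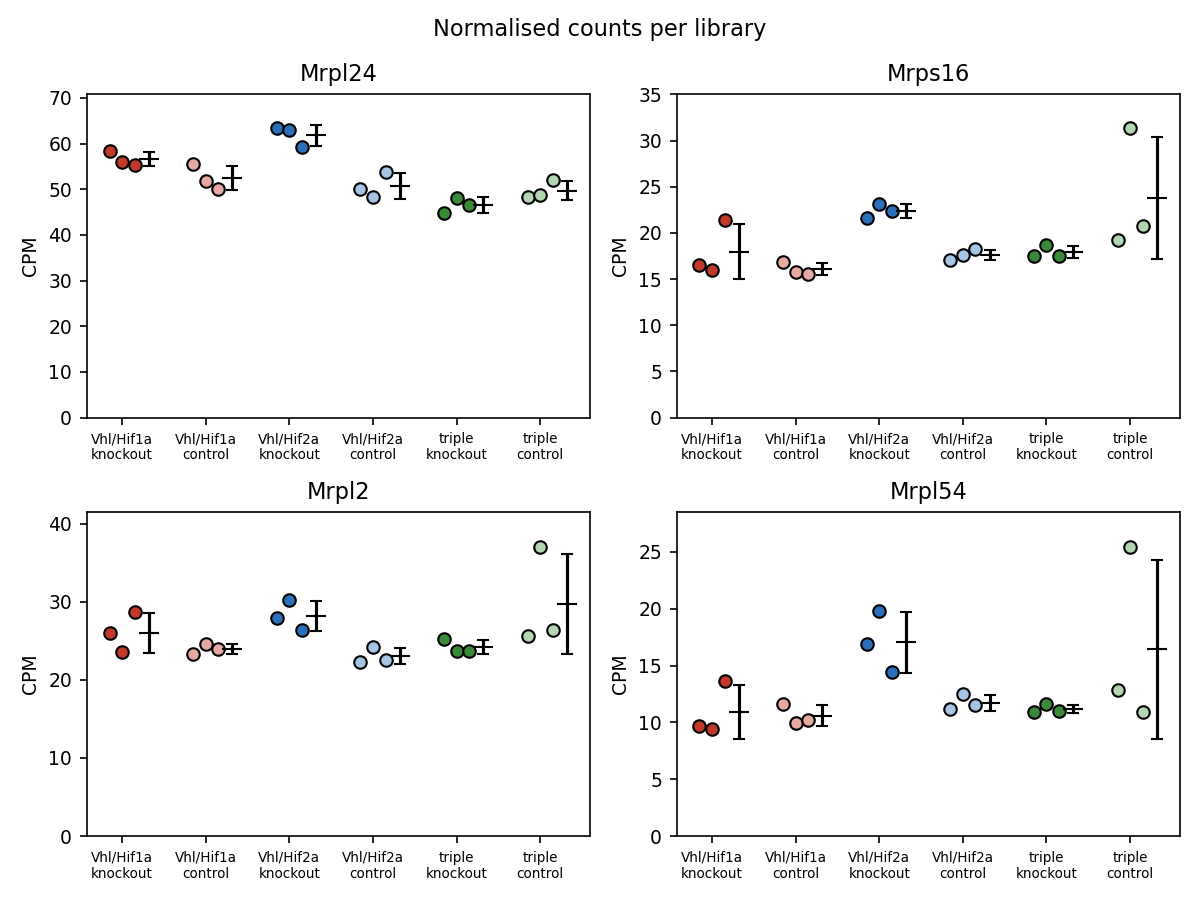
CPM of Mrpl24, Mrps16, Mrpl2 and Mrpl54 in each library (points, replicates 1 to 3 from left to right) with the mean ± SD of each group of 3 (bars); axes start at 0. In the Vhl/Hif2a cross the knockout libraries lie above all controls for all 4 genes, and triple control replicate 2 is far above the other triple controls for Mrps16, Mrpl2 and Mrpl54.

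Between the Vhl/Hif2a and Vhl/Hif1a effects no gene of the family differed by edgeR or DESeq2 (0 of 78, where 2.44% of all tested genes were called), and 1 did at an unadjusted p under 0.05 (10.5%). The median difference was 0.08. For Mrpl24 it was 0.18 ± 0.10 (SE; adjusted p = 0.594), so a rise confined to 1 of the double crosses was not shown. Between the Vhl/Hif1a and triple effects 0 were called by either tool (2.04% of all tested genes), with 7 at an unadjusted p under 0.05 (16.7%). Without triple control replicate 2, 0 were called by edgeR and 2 were at an unadjusted p under 0.05 (11.5%). The Vhl/Hif1a and Vhl/Hif2a crosses share no library, and across the 78 genes their log2 fold changes ran together (Pearson's r 0.528, Spearman's rho 0.526, with 50 genes of the same sign). Against the triple cross, the Vhl/Hif1a values had a Pearson's r of -0.358 and a Spearman's rho of -0.367, and the Vhl/Hif2a values -0.319 and -0.278, each with 30 genes of the same sign. Without triple control replicate 2 these were -0.0371 and -0.0946 with 34 genes, and -0.188 and -0.141 with 42 genes. Each value describes 78 genes that share 6 libraries in each cross, and genes are not independent replicates. The values were not computed over all tested genes or without a library of the double crosses. An agreement particular to the family is therefore not shown.

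The 3 control groups, all floxed, were also compared with each other. The Vhl/Hif2a and Vhl/Hif1a controls differed in 0 of 78 genes by edgeR and DESeq2 (0.341% of all tested genes by edgeR), with 1 at an unadjusted p under 0.05 (5.44%). The triple control differed from the Vhl/Hif1a control in 1 gene, Mrps16 (log2 difference 0.56 ± 0.15, adjusted p = 0.0373; 5.4% of all tested genes), and from the Vhl/Hif2a control in 0 (3.42%). DESeq2 called 7 and 2 in these comparisons, and edgeR had 23 and 16 at an unadjusted p under 0.05 (24.4% and 22.1%). Without triple control replicate 2, edgeR called 0 in both comparisons and had 8 and 1 at an unadjusted p under 0.05 (19.6% and 15.0% of all tested genes). Mrps16 was then at 0.31 (adjusted p = 0.104). It was also not called without replicate 1, 2 or 3 of the Vhl/Hif1a control (adjusted p = 0.068, 0.12 and 0.131), with only the libraries of this comparison (0.283) or with the replicate block (0.0541).

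Medians by kind of protein lay close together. In the Vhl/Hif2a knockout the median log2 fold change was 0.09 for the 26 small subunit genes and 0.11 for the 51 large subunit genes, and 0.10 for the 46 genes with a bacterial homologue and 0.12 for the 31 found only in mitochondria. In the Vhl/Hif1a knockout these medians were 0.01, 0.04, 0.04 and 0.04. Mrps36, whose protein is not part of the ribosome, had 0.08 ± 0.09 (SE) in the Vhl/Hif2a and -0.08 ± 0.09 in the Vhl/Hif1a cross. No difference between kinds was tested.

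The 3 Mrps18 genes are paralogs whose proteins take different places in the ribosome, and none of them was called in any knockout. Mrps18a was at 25.9, 28.1 and 24.6 CPM in the Vhl/Hif2a knockout and at 21.8, 22.2 and 24.2 CPM in its control (log2 fold change 0.21 ± 0.12, adjusted p = 0.296). All knockout libraries were above the controls. Mrps18b (0.08 ± 0.10) and Mrps18c (-0.03 ± 0.10) overlapped with their controls in that cross. Mrps11 and Mrpl46, which lie on opposite strands and share 173 exonic bases, were uncertain for that reason, and both were uncalled in every knockout. Exon overlap with some annotated gene was found for 33 of the 78 genes, and on the opposite strand for 28. A strand setting cannot resolve overlap on the same strand. There Mrpl53 shares 695 bases, the length of its principal transcript, with Gm42688, Mrps34 763 with Nme3 and Mrpl33 261 with Gm43809. Mrps6 shares 305 bases with Gm49711 and 159 with Slc5a3, and Mrps24 shares 226 with Urgcp, also on the same strand. Mrps18c (250 bases), Mrpl3 (248) and Mrpl51 (87) overlap there with genes that are absent from the counts. Gm42688 was called higher in the Vhl/Hif1a knockout (log2 fold change 0.477 ± 0.125 SE, adjusted p = 0.0414 by edgeR). The values of Mrpl53, Mrps34, Mrpl33, Mrps6 and Mrps24 are uncertain because of this overlap on the same strand.

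The gaps between libraries of a group were small for this family. The median SD of log2 CPM within groups was 0.14, against 0.18 over all tested genes, and it ran from 0.05 for Mrps9 to 0.35 for Mrpl52. It fell to 0.10 without triple control replicate 2. Across the 78 genes, the SD was higher for shorter transcripts (Spearman's rho -0.382 with length), for those with a higher GC content (0.426) and for less abundant ones (-0.395). Without that library the values were -0.345, 0.189 and -0.47, so the relation with GC content was weaker. The comparison with all tested genes was not matched for abundance. Each of the 78 genes had a mean of at least 1 CPM, while the tested genes included some below it. A lower SD is therefore not shown to be a trait of the family. The same limit holds for the shares of 95% intervals within 1.5-fold.

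Few other genes of the same machinery were called. Among all tested genes edgeR called 3.64% in the Vhl/Hif1a, 14.7% in the Vhl/Hif2a and 0.0388% in the triple knockout. Of 5 further mitochondrial ribosome proteins with other symbols, Dap3, a GTP-binding small subunit protein, rose in the Vhl/Hif2a knockout, to 47.8 ± 1.55 from 39.5 ± 2.72 CPM (log2 fold change 0.28 ± 0.07, adjusted p = 0.0148 by edgeR). Gadd45gip1 (0.42), Chchd1 (0.19), Aurkaip1 (0.07) and Ptcd3 (0.07) did not pass. Of 27 genes for assembly of the ribosome and modification of its RNA, 0 were called in any knockout by edgeR. The same held for 16 mitochondrial translation factors. At an unadjusted p under 0.05, 1 translation factor was lower in the Vhl/Hif1a knockout (813 of 12900 tested genes). In the Vhl/Hif2a knockout 1 translation factor was lower (1630 of 12900) and 1 assembly gene was higher (13.7% of all tested genes). Of 20 genes for charging mitochondrial tRNAs, Fars2 (log2 fold change 0.34, adjusted p = 0.0225) and Ears2 (0.35, adjusted p = 0.0462) passed as higher in that cross. Of 13 genes for transcription and upkeep of mitochondrial DNA, Mterf2 fell there by 1.25 on the log2 scale (adjusted p = 0.0335) at a mean of 0.941 CPM. The lowest log2 fold change among these 13 genes in the Vhl/Hif1a knockout was -1.04, not called. Between the Vhl/Hif2a and Vhl/Hif1a effects 0 of the 13 differed by edgeR (2.44% of all tested genes), so a fall confined to 1 double cross was not shown. Without triple control replicate 2, edgeR called 0 genes of each of these lists in the triple knockout (0.0228% of all tested genes).

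The 15 transcripts of the mitochondrial genome, the templates and RNAs of this ribosome, showed no call in any knockout and 0 at an unadjusted p under 0.05 by edgeR, with median log2 fold changes of 0.10, -0.15 and 0.41 in the Vhl/Hif1a, Vhl/Hif2a and triple knockout. Their intervals were wide, with a median SE of 0.34 to 0.35, so a shift of that size was not detectable. Without triple control replicate 2, which held the lowest sum of these transcripts, the triple median was 0.03, with 0 called and 0 at an unadjusted p under 0.05. Polyadenylated RNA was selected, which limits what can be read from organelle transcripts.

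Among 12 tested regulators, Mxi1 rose in both double knockouts, to 132 ± 5.57 from 87.3 ± 8.14 CPM in the Vhl/Hif1a cross (log2 fold change 0.60 ± 0.08, adjusted p = 0.000216) and to 149 ± 14.4 from 90.8 ± 3.22 CPM in the Vhl/Hif2a cross (0.71 ± 0.08, adjusted p = 1.13e-05), and had 0.05 in the triple cross (adjusted p = 0.738; 0.10 without triple control replicate 2). The others were not called in any knockout. Myc had 0.64 ± 0.25 (adjusted p = 0.103) in the Vhl/Hif2a cross, and the regulators whose letters were searched in the promoters had values near 0 there, with Nrf1 at 0.02, Gabpa at 0.01 and Yy1 at 0.07.

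Beside these lists, glycolysis, proliferation and cytosolic ribosomal protein genes were called far more often in the same Vhl/Hif2a libraries. Of all tested genes, 14.7% were called there, and 7.68% were called higher. All 15 glycolysis genes rose, with a median log2 fold change of 2.23, and 17 of 20 proliferation genes fell. Of 82 cytosolic ribosomal protein genes, 32 rose and 0 fell, with a median of 0.36. Every knockout library lay above every control for 77 of them (18.5% of all tested genes). Of 74 respiratory chain genes, 2 rose (Ndufv3, 0.998, and Ndufa9, 0.29) and 2 fell (Ndufa4, -1.41, and Sdhb, -0.31), and their median was 0.10, as for the mitochondrial ribosomal proteins. In the triple knockout these 4 lists held 0 calls by edgeR (0.0388% of all tested genes). At an unadjusted p under 0.05, 9 glycolysis, 1 proliferation, 0 cytosolic ribosomal and 12 respiratory chain genes were lower (8.08% of all tested genes). In the other direction there was 1 respiratory chain gene (3.43%). Without triple control replicate 2 the 4 lists again held 0 calls. At an unadjusted p under 0.05 were then 2 glycolysis genes and 0 of the others (2.63% of all tested genes).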

How the data were processed

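Per the submitters' processing notes, the authors checked reads with FastQC, trimmed them with cutadapt and aligned them to GRCm38 with STAR; the versions, counting tool, annotation and strand rule were not given in the sources used here. The deposited table holds expected counts (estimated reads per gene); the unit was taken from the values, of which 89.251% were whole. They were rounded, filtered with filterByExpr (12900 of 32789 genes tested), scaled with TMM factors and fitted with edgeR's quasi-likelihood model, 1 coefficient per group over 18 libraries, with Benjamini-Hochberg adjustment over all tested genes and a call at 0.05. CPM used the scaled library sizes. The SE is the log2 fold change divided by the square root of F. Errors hold library spread and counting error, and PCR duplication is not covered. DESeq2 1.42.0, other scalings, no filter, only the libraries compared, a replicate block and leaving out each library were alternatives. R was 4.3.3, edgeR 4.0.16 and limma 3.58.1. Positions, lengths and exon overlaps came from GENCODE M21 on GRCm38.

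The members and gene lists were chosen with earlier results of these data known. Named genes were the called members per knockout, otherwise the 5 largest changes per direction, at most 4 per interaction, the 5 highest and lowest per kb, the Mrps18 paralogs, ribosome proteins with other symbols and up to 4 called genes per other list. The test was checked on simulated counts, in which no library stood apart and the planted changes were larger than that of Mrpl24. That check therefore does not cover smaller changes or a library like triple control replicate 2. Replicates with the same number did not deviate together (correlations from -0.218 to 0.2 across genes), so the numbers were not taken as pairs.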

Additional observations from a re-analysis of the deposited data

Results flagged for a closer look

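For 3 genes the knockout effect differed between the Vhl/Hif2a and the triple cross in the test of the interaction by edgeR. The difference of the log2 fold changes was 0.383 for Mrpl24, 0.585 for Mrpl2 and 0.751 for Mrps16. For each, all 3 Vhl/Hif2a knockout libraries lay above their controls. Triple control replicate 2 was the highest of the 18 libraries for Mrpl2 and Mrps16, and without it the differences were 0.40 for Mrpl24, 0.40 for Mrpl2 and 0.50 for Mrps16, and all 3 were called. None of the 3 was called with the replicate block (adjusted p of 0.0778 for Mrpl24, 0.0856 for Mrpl2 and 0.0544 for Mrps16), with only the libraries of the comparison (0.0816, 0.0941 and 0.0684), or without Vhl/Hif2a knockout replicate 1, Vhl/Hif2a control replicate 2, or triple knockout replicate 1 or 3. With no filter on low counts Mrpl24 was not called either (adjusted p = 0.0797). For Mrpl24, triple control replicate 2 lay between the other triple controls.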

How the results depend on the processing

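The counts of called genes in the Vhl/Hif1a and triple knockouts stayed at 0 under every alternative run. The 42 recomputed median log2 fold changes moved by less than the spread between replicates. That spread was 0.0741, 0.0482 and 0.118 on the log2 scale in the Vhl/Hif1a, Vhl/Hif2a and triple crosses. It included the libraries that were left out in turn, so this comparison cannot show that the medians were stable. In the Vhl/Hif2a knockout, 2 genes were called with upper quartile factors, 2 with DESeq2, 5 with only the libraries of the comparison and 1 to 3 with 1 library left out. For the Vhl/Hif2a effect against the triple effect, DESeq2 called 5, only the libraries of the comparison 0, the replicate block 0 and leaving out 1 library 0 to 8. For the triple against the Vhl/Hif1a control, no filter gave 2, DESeq2 7, only these libraries 0, the replicate block 0 and leaving out 1 library 0 to 7. For the triple against the Vhl/Hif2a control, DESeq2 called 2 and leaving out 1 library gave 0 to 6. The cause was not tested. The replicate numbers were not taken as pairs. With the replicate block Mrpl24 was still called by edgeR in the Vhl/Hif2a knockout (adjusted p = 0.0425). Median log2 fold changes of the family changed sign where they were near 0: in the Vhl/Hif1a knockout from 0.0366 to -0.00348 with total counts and no scaling factor and to -0.0317 without knockout replicate 3, and in the triple knockout from -0.0599 to 0.0105 without control replicate 2. The median SE of a gene's log2 fold change was 0.113 to 0.115 in the 3 knockouts, which limits the change that 3 libraries against 3 can show.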

Other observations

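Mrpl54 and Apba3 start head to head, 26 bases apart on opposite strands, and share no exonic bases. Apba3 rose in the Vhl/Hif2a knockout (log2 fold change 0.91 ± 0.19 SE, adjusted p = 0.00242 by edgeR), where Mrpl54 had the highest value of the 78 genes (0.54 ± 0.23, not called). In the triple cross they had -0.48 and -0.55, neither called, and without triple control replicate 2 they had -0.12 and -0.09. This pair was chosen after its values were seen. No gene of the family lies closer to a targeted gene than Mrpl51 to Vhl, at 11.56 Mb on chromosome 6.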
